A study of Homo sapiens with 12 samples.

Results

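Translation initiation factors and 4E-binding proteins are the proteins that start protein synthesis on an mRNA and the small inhibitors that hold the cap-binding factor back. The genes described here are the protein-coding genes of the count table whose names start with EIF followed by a digit from 1 to 6. The eIF2 kinases (names starting EIF2AK) and names starting EIF3CL were left out. The rule gave 51 of the 58735 genes in the table, and 50 of them had enough counts to be tested among 16646 genes. The exception was EIF4E1B, an oocyte cap-binding protein, which had 0 counts in all 12 libraries, a result that allows up to 0.135 to 0.212 CPM (counts per 1000000 counts, at a floor of 3 counts) depending on the library.

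Polyadenylated RNA was sequenced from C4.2B, a human prostate cancer cell line derived from LNCaP, in 4 arms of 3 libraries each. One arm received DMSO. Ipatasertib, which inhibits AKT, was given at 0.25 μM (AKTi), and tazemetostat, which inhibits EZH2, at 1 μM (EZH2i). The last arm received both (combination), and every arm was grown in 10% charcoal-stripped serum and collected after 24 hours. EZH2i and combination cells had already received tazemetostat for 6 days, so the agent and the length of exposure cannot be told apart when EZH2i is set against AKTi. All libraries come from this 1 line, and replicates were plates seeded in parallel, so p-values measure the spread between such plates. All 10 luminal prostate markers examined were detected in every arm, while 19 markers of basal, leukocyte, fibroblast, endothelial and neuroendocrine cells together summed to 14.77 to 19.66 CPM in DMSO, 18.28 to 19.89 CPM with AKTi, 35.65 to 36.98 CPM with EZH2i and 26.82 to 34.11 CPM in the combination. Totals ran from 14133755 to 22276417 counts per library. The summed luminal markers stood at 3988 to 4122 CPM in DMSO and 8766 to 8955 CPM in the combination. KLK3, which encodes PSA, made up much of this difference (means of 1372 and 3941 CPM), while HOXB13 (424 and 294 CPM) and EPCAM (127 and 104 CPM) were lower in the combination. The mitochondrial share of counts was 2.37 to 3.36% in DMSO and 5.14 to 5.64% in the combination. The part of any of these in the values given here was not tested. In bulk RNA, fewer cells of a type and less RNA per cell cannot be told apart, and each fold change is relative to the other genes of the library.

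Initiation begins when eIF2, loaded with GTP and the initiator tRNA, joins the small ribosomal subunit together with eIF1, eIF1A, eIF3 and eIF5. eIF2B recharges eIF2 with GTP after each round, and is inhibited when eIF2 is phosphorylated under stress. eIF4F, built from the cap-binding protein eIF4E, the helicase eIF4A and the scaffold eIF4G, brings the mRNA. The 4E-binding proteins occupy the eIF4G site of eIF4E until mTORC1, which acts downstream of AKT, phosphorylates them. The libraries measure the transcripts of these proteins, neither their phosphorylation nor the rate of translation.

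Most of the factors were lower after EZH2i and after the combination. The members called higher in the combination came from several steps: EIF1, EIF3F, EIF4B, EIF4G3, EIF4E3, EIF4EBP2 and EIF4EBP3. Against DMSO, 32 of the 50 tested members differed with AKTi (7 higher, 25 lower) where 42.5% of all tested genes differed. With EZH2i 42 differed (3 higher, 39 lower) where 64.1% of all genes did, and with the combination 45 differed (7 higher, 38 lower) where 73.2% did. These calls are from edgeR's quasi-likelihood test at an adjusted p under 0.05. Of all genes, 21.9% were lower and 20.6% higher with AKTi, 31.5% lower and 32.6% higher with EZH2i, and 35.2% lower and 38% higher with the combination. Highly expressed genes are called more easily, and 39 of the members had a mean of at least 5 log2 CPM. Among the 6343 genes at that level, 62.9% were called with AKTi (26.8% higher, 36.1% lower), 79.6% with EZH2i (30.8% higher, 48.7% lower) and 86.8% with the combination (33.6% higher, 53.2% lower). The shares over all 50 tested members, which include members below that level, were 64%, 84% and 90%. The number of calls was therefore not read as particular to the members. By direction, 22 of the 39 were lower and 5 higher with AKTi, 33 and 2 with EZH2i, and 31 and 5 with the combination. The median log2 fold change of the members was -0.20 with AKTi, -0.46 with EZH2i and -0.55 with the combination, beside medians of 0.01, 0.03 and 0.06 over all genes.

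**Figure D1:**
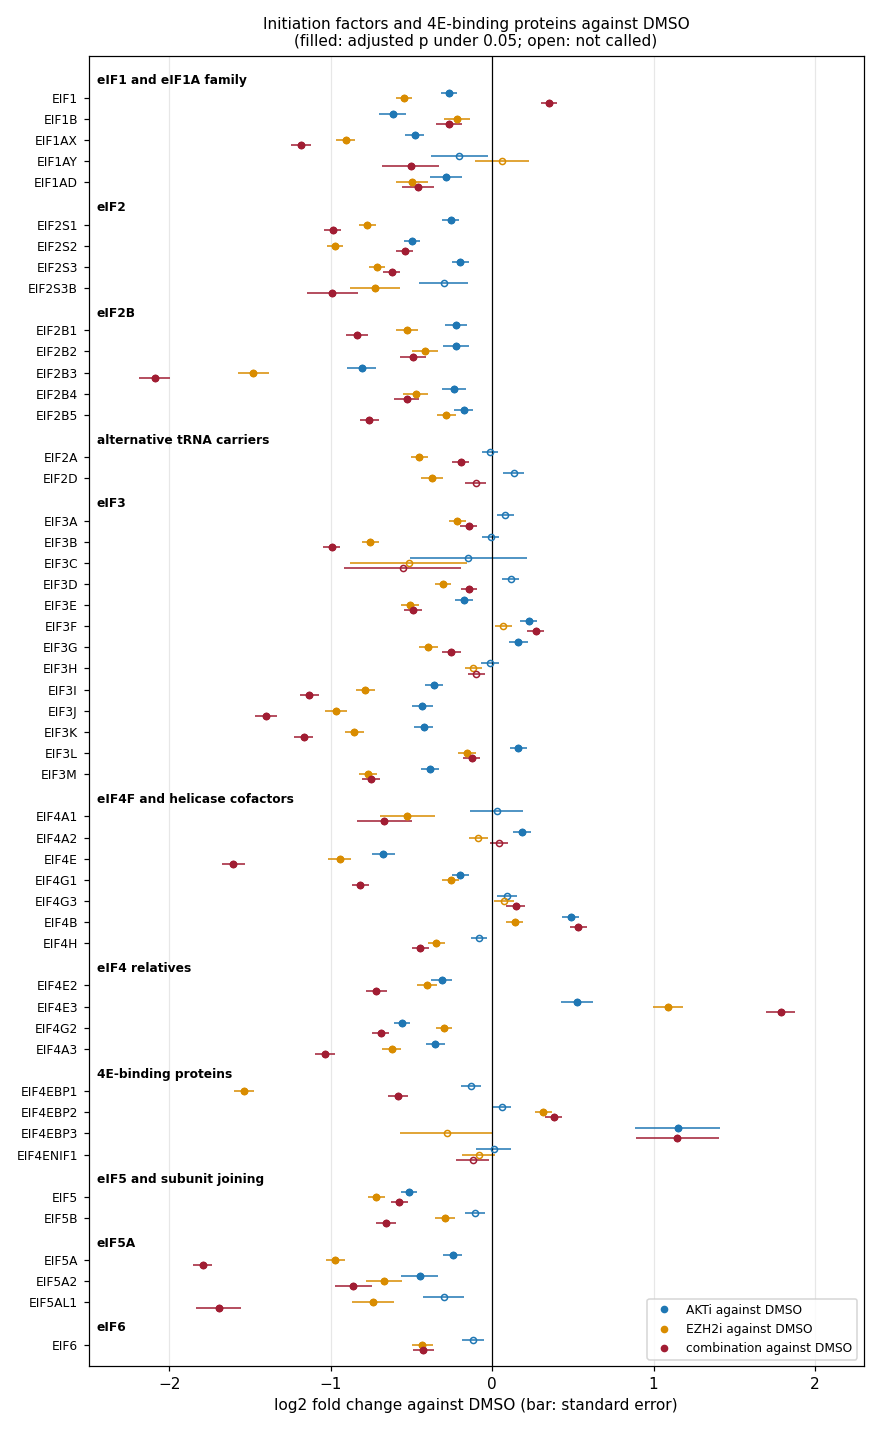
Log2 fold change of the 50 tested members against DMSO (horizontal axis) with its standard error, by role, for AKTi, EZH2i and the combination. Filled points passed an adjusted p of 0.05. Most points lie left of 0, and EIF4E3, EIF4EBP3, EIF4B and EIF4EBP2 lie right of 0 in the combination.

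The 3 comparisons share their DMSO libraries, so their calls are not independent. In all of them 24 of the 50 members were lower, where 17% of all genes and 30% of those at 5 log2 CPM or more were. A further 11 were called lower with EZH2i and the combination but not with AKTi. The share of all genes with this pattern was not computed, so the count was not read as particular to the members. EIF4B and EIF4E3 were called higher in all 3 treated arms, although the EZH2i call of EIF4B was lost when any of 7 libraries was left out. EIF1 was lower with each agent and higher with both. EIF3C, EIF3H and EIF4ENIF1 passed the test in none of the 3 comparisons with DMSO. The scaling of the libraries moves this balance for AKTi: scaled by the upper quartile, or by library size only, 11 members were higher and 20 lower. For the combination these scalings gave 8 higher and 31 lower, and the median of all genes moved from 0.06 to 0.26 and 0.25.

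To set levels of different genes side by side, CPM were divided by the gene length of the count table. By these lengths the highest level in DMSO was that of EIF3I, a WD-repeat subunit of eIF3, at 321 ± 23.2 CPM per kb (SD, n = 3). This place rests on a listed length of 1.72 kb, and with the 9.53 kb of exon bases that GENCODE gives the gene, EIF3I stood at 58.05 CPM per kb and in place 20. EIF5A followed at 262 CPM per kb, EIF4G2 at 218 and EIF1 at 199.8, with no overlap between neighbours in this order. EIF4H, EIF4G1, EIF2S3, EIF4EBP1 and EIF4B lay between 148 and 182 CPM per kb. By GENCODE lengths the same genes ran from 99.97 CPM per kb for EIF4H to 183.6 for EIF4EBP1. EIF4E lay much lower, at 9.56 ± 0.331 CPM per kb, by a listed length of 14.1 kb, and at 27.1 CPM per kb by the 4.97 kb of GENCODE. EIF4E3 was the lowest member with reads apart from EIF4E1B at 0, at 1.20 CPM per kb. EIF4A1 stood just above it at 1.41 CPM per kb, and this value may not be its expression, since 47.4% of its exon bases are also annotated to another gene on the same strand.

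The 4E-binding protein genes did not move as 1 group. EIF4E encodes the cap-binding protein of eIF4F. Its libraries held 139, 129 and 136 CPM in DMSO, 86.9, 84.9 and 81.1 in AKTi, 63.3, 76.4 and 69.6 in EZH2i, and 49.1, 39.2 and 44.3 in the combination. All 4 arms were separate, with DMSO highest and the combination lowest. The log2 fold change was -0.67 ± 0.0698 with AKTi, -0.95 ± 0.0698 with EZH2i and -1.60 ± 0.0724 with the combination (± SE), the last being 0.329 times the DMSO level (edgeR adjusted p = 4.05e-21). The combination was also below AKTi (log2 fold change -0.93 ± 0.0739, edgeR adjusted p = 1.23e-13) and below EZH2i (log2 fold change -0.66 ± 0.0737, edgeR adjusted p = 1.76e-09). The interaction, meaning the log2 effect of AKTi in tazemetostat-treated cells minus its effect without tazemetostat, was 0.02 for EIF4E (edgeR adjusted p = 0.934).

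EIF4EBP1 encodes 4E-BP1, the best studied of the inhibitors. It had 157, 161 and 167 CPM in DMSO, 146, 146 and 151 in AKTi, 61.5, 54.9 and 51.0 in EZH2i, and 108, 114 and 102 in the combination. Every EZH2i library was below every combination library, and these were below AKTi and DMSO, with no overlap between any arms. EZH2i alone took it to 0.344 times the DMSO level (log2 fold change -1.54 ± 0.0636, edgeR adjusted p = 1.21e-21), the lowest fold change of any member with EZH2i. With AKTi the log2 fold change was -0.13 and missed the threshold (edgeR adjusted p = 0.0761), although without EZH2i replicate A the fit gave an adjusted p of 0.0395. In the combination it was -0.58 ± 0.0607, above EZH2i by 0.96 on the log2 scale (edgeR adjusted p = 3.22e-15), and the interaction was 1.09 ± 0.0879 (edgeR adjusted p = 3.12e-12).

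EIF4EBP2 encodes the paralog 4E-BP2. Its libraries gave 191, 197 and 207 CPM in DMSO, 202, 210.2 and 209 in AKTi, 239, 252 and 251 in EZH2i, and 273, 258 and 245 in the combination. The DMSO and AKTi libraries overlapped, as did EZH2i and the combination, and the latter arms lay above the former. It rose with EZH2i (log2 fold change 0.32 ± 0.0540, edgeR adjusted p = 3.69e-06) and the combination (log2 fold change 0.38 ± 0.0539, edgeR adjusted p = 8.48e-08), and the log2 fold change was 0.06 with AKTi (edgeR adjusted p = 0.409). The third inhibitor, EIF4EBP3, was near the limit of detection, at 2.89, 1.70 and 1.77 CPM in DMSO, 4.56, 5.46 and 4.03 in AKTi, 1.27, 1.46 and 2.34 in EZH2i, and 5.78, 4.44 and 3.75 in the combination. AKTi and combination libraries lay above all DMSO and EZH2i libraries. The log2 fold change was 1.15 ± 0.264 with AKTi and 1.15 ± 0.259 with the combination (edgeR adjusted p = 0.000489 and 0.000167). Only 23 to 43 counts per DMSO library stand behind these values, and 73.2% of its exon bases also belong to the readthrough gene ANKHD1-EIF4EBP3, so reads of the pair may have been lost or shared. EIF4ENIF1, which carries eIF4E into the nucleus and binds it through the same motif, had log2 fold changes of 0.01, -0.08 and -0.12 with adjusted p (edgeR) of 0.962, 0.498 and 0.297.

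**Figure D2:**
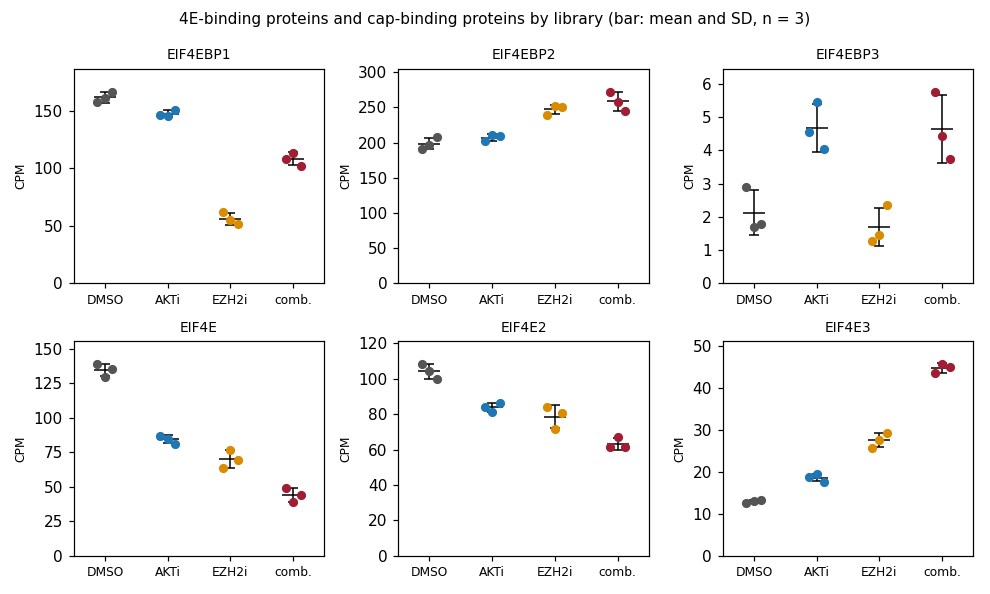
CPM (vertical axis, from 0) of the 4E-binding protein genes and of EIF4E, EIF4E2 and EIF4E3 in each library of DMSO, AKTi, EZH2i and the combination (comb.). Points are libraries, and bars give the mean and SD of 3. EIF4EBP1 is lowest with EZH2i, EIF4E is lowest and EIF4E3 highest in the combination.

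EIF4E has relatives that differ in what they bind. EIF4E2 encodes 4EHP, which binds the cap but not eIF4G, and it was lower in each arm, with log2 fold changes of -0.31, -0.40 and -0.72 (edgeR adjusted p at most 0.000149). EIF4E3 encodes a further cap-binding protein that can bind eIF4G. By library it was at 12.5, 13.1 and 13.2 CPM in DMSO, 18.7, 19.4 and 17.7 in AKTi, 25.7, 27.6 and 29.1 in EZH2i, and 43.4, 45.5 and 45.0 in the combination. The arms did not overlap and stood in the reverse order of EIF4E. It had the highest fold change of any member with EZH2i (log2 fold change 1.09 ± 0.0931, edgeR adjusted p = 8.83e-13) and with the combination (log2 fold change 1.79 ± 0.0908, edgeR adjusted p = 1.47e-19), where it reached 3.45 times the DMSO level. AKTi alone raised it by 0.52 on the log2 scale (edgeR adjusted p = 3.65e-05), and the interaction was 0.17 (edgeR adjusted p = 0.349).

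Ratios of 2 transcripts within a library do not depend on how libraries are scaled. The summed CPM per kb of the 3 4E-binding proteins, by the lengths of the count table, was 18.0, 19.5 and 19.4 times that of EIF4E in the DMSO libraries, 27.6, 28.6 and 30.4 times with AKTi, 20.4, 16.2 and 17.3 times with EZH2i, and 42.0, 53.0 and 42.7 times in the combination. EZH2i overlapped DMSO, while AKTi lay above both and the combination above AKTi. The size of this ratio also rests on the listed lengths. By GENCODE exon bases its geometric mean was 7.88 in DMSO, 11.9 with AKTi, 7.06 with EZH2i and 18.5 in the combination. The sum hides opposite moves: with EZH2i the ratio of EIF4EBP1 to EIF4E was lower than in DMSO (geometric mean 10.5 against 15.8) and that of EIF4EBP2 to EIF4E was higher (6.88 against 2.86). EIF4E3 per EIF4E stood at 0.125 in DMSO, 0.288 with AKTi, 0.515 with EZH2i and 1.32 in the combination, where every library was above 1. That crossing rests on the listed length of EIF4E: by GENCODE exon bases the ratio was 0.0442, 0.101, 0.181 and 0.466, and no combination library reached 1. Among 55 comparisons of 11 ratios, by an exact two-sided permutation test, 3 libraries against 3 cannot give a p below 0.1, and the smallest adjusted p was 0.115. The value of each ratio depends on the gene lengths used, but the change of a ratio of 2 genes between arms does not.

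**Figure D3:**
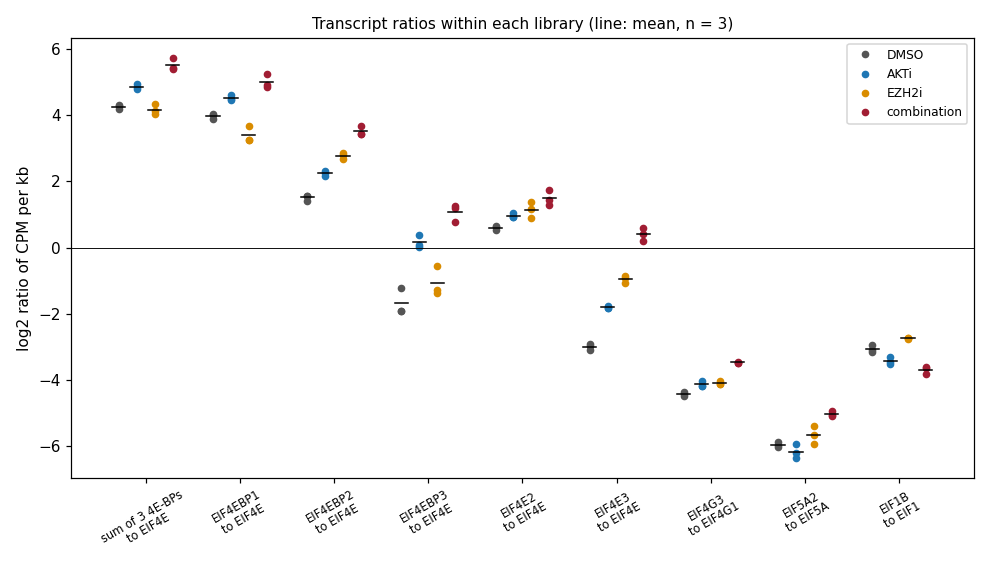
Log2 ratio of CPM per kb of pairs of members (vertical axis) in each library, coloured by arm, with the mean of 3 as a line. A value of 0 is equal level by the lengths of the count table. EIF4E3 to EIF4E is lowest in DMSO and highest in the combination, and the 4E-binding protein sum to EIF4E is highest in the combination.

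Of the other eIF4F genes, EIF4G1, the main scaffold, had 1415, 1482 and 1592 CPM in DMSO, 1243, 1332 and 1339 in AKTi, 1253, 1229.9 and 1278 in EZH2i, and 865, 848 and 835 in the combination. The combination libraries were below all others, and AKTi overlapped EZH2i. The log2 fold change was -0.82 ± 0.0525 in the combination against -0.20 with AKTi and -0.26 with EZH2i, an interaction of -0.36 ± 0.0738 (edgeR adjusted p = 0.00022). The EZH2i call was lost with library size only (adjusted p = 0.052). EIF4G3, another scaffold, was called higher in the combination at a log2 fold change of 0.14 (edgeR adjusted p = 0.0298), but the call was lost when any of 9 of the 12 libraries was left out (adjusted p up to 0.227).

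EIF4B stimulates the helicase activity of eIF4A and is phosphorylated by S6 kinase. Its libraries held 884, 873 and 978 CPM in DMSO, 1259, 1280.4 and 1293 in AKTi, 959.7, 1024 and 1031 in EZH2i, and 1365, 1279 and 1316 in the combination. AKTi and combination libraries overlapped each other and lay above every DMSO and EZH2i library. It rose with AKTi (log2 fold change 0.49 ± 0.0529, edgeR adjusted p = 1.49e-09) and with the combination (log2 fold change 0.53 ± 0.0529, edgeR adjusted p = 2.44e-11). EZH2i overlapped DMSO, and its call at 0.14 (edgeR adjusted p = 0.0204) was lost without any of 7 libraries (DMSO A or B, AKTi A, B or C, EZH2i B or C), with adjusted p up to 0.42. EIF4H, a related helicase cofactor, was lower with EZH2i and the combination (log2 fold changes -0.35 and -0.45). EIF4A2, the other eIF4A gene of eIF4F, was higher with AKTi only by these calls (log2 fold change 0.19 ± 0.0562, edgeR adjusted p = 0.00675), and this call was lost without DMSO replicate C or AKTi replicate A (adjusted p up to 0.106). For EIF4A1 the log2 fold changes of 0.03, -0.53 and -0.67 rest on 75 to 141 counts per library. Whether reads of the shared exons were counted elsewhere was not tested.

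EIF4G2, also called DAP5, is a scaffold without the eIF4E site. By library it was at 1846, 1864 and 1956 CPM in DMSO, 1282, 1267 and 1293 in AKTi, 1451, 1589 and 1563 in EZH2i, and 1215, 1145 and 1150.4 in the combination. No arms overlapped, and DMSO was highest. It was among the members that fell most with AKTi (log2 fold change -0.56 ± 0.0512, edgeR adjusted p = 2.46e-11). EZH2i lowered it less, by -0.30 on the log2 scale, and the combination stood at -0.69. The combination was below AKTi by -0.13 (edgeR adjusted p = 0.0253), a call lost without combination replicate B or C (adjusted p up to 0.0831), and the value turned to 0.01 with library size only. EIF4A3, a helicase of the exon junction complex that shares the family name, was at -0.35, -0.62 and -1.04 in log2 fold change, all called lower.

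Every tested gene of eIF2 and of its exchange factor was lower in the combination. So were 35.2% of all genes and 53.2% of those at 5 log2 CPM or more. EIF2S1, EIF2S2 and EIF2S3 encode the alpha, beta and gamma subunits, and EIF2S3B a retrocopy of the last with 8.2% of its 100-base stretches found in other genes. Their log2 fold changes in the combination were -0.99, -0.54, -0.62 and -0.99, and with EZH2i -0.77, -0.97, -0.71 and -0.73. The beta subunit stood out. EIF2S2 had 331, 309.6 and 325 CPM in DMSO, 225, 230.0 and 230.4 in AKTi, 166, 161 and 165 in EZH2i, and 231, 215 and 217 in the combination. Combination libraries overlapped AKTi and lay above every EZH2i library. The fall with EZH2i (log2 fold change -0.97 ± 0.0521, edgeR adjusted p = 2.14e-18) was larger than in the combination (-0.54), and the interaction was 0.93 ± 0.0734 (edgeR adjusted p = 1.97e-12). For EIF2S1 the interaction was 0.04 (edgeR adjusted p = 0.733), and in the combination EIF2S1 was at 0.504 and EIF2S2 at 0.686 times its DMSO level.

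All 5 eIF2B subunits were called lower in each arm, as were 17% of all genes and 30% of those at 5 log2 CPM or more. The medians of the subunits were -0.22 with AKTi, -0.48 with EZH2i and -0.76 with the combination on the log2 scale. EIF2B3, the gamma subunit, set the range. It had 49.6, 43.0 and 45.7 CPM in DMSO, 28.2, 26.1 and 24.7 in AKTi, 16.0, 15.2 and 18.2 in EZH2i, and 10.9, 10.8 and 10.7 in the combination. No arms overlapped, and the combination was lowest. EIF2B3 had the lowest fold change of any member with AKTi (log2 fold change -0.81 ± 0.0910, edgeR adjusted p = 3.11e-09) and with the combination (log2 fold change -2.09 ± 0.0980, edgeR adjusted p = 1.26e-20), where 0.235 of the DMSO level was left. The catalytic subunit EIF2B5 was at -0.18, -0.28 and -0.76, with an interaction of -0.30 (edgeR adjusted p = 0.00526). With AKTi the calls of the other subunits were narrow: that of EIF2B1 was lost without AKTi replicate A, that of EIF2B4 likewise, and that of EIF2B2 without DMSO replicate A or C or AKTi replicate A (adjusted p up to 0.0566, 0.0559 and 0.175). EIF2A and EIF2D, which can bring initiator tRNA without eIF2, were both lower with EZH2i (-0.45 and -0.37). EIF2A was called lower in the combination at -0.20, but this was 0.00 with library size only, and EIF2D was not called there (-0.10, edgeR adjusted p = 0.152).

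eIF1 keeps the scanning complex open until a start codon is found, and EIF1 showed the largest interaction of any member. Per library it had 726, 718 and 727 CPM in DMSO, 594, 616 and 597 in AKTi, 484, 503 and 498 in EZH2i, and 949.6, 935 and 884 in the combination. No arms overlapped, and the order was EZH2i, AKTi, DMSO and then the combination. Each agent alone lowered it (log2 fold change -0.27 ± 0.0496, edgeR adjusted p = 3.55e-05, and for EZH2i log2 fold change -0.55 ± 0.0497, edgeR adjusted p = 4.19e-12), while both together raised it (log2 fold change 0.35 ± 0.0494, edgeR adjusted p = 7.3e-08). The interaction of 1.16 ± 0.0703 (edgeR adjusted p = 1.03e-15) kept its sign and its call under all 18 alternatives tried for it. Its paralog EIF1B behaved otherwise. EIF1B had 49.5, 44.3 and 43.1 CPM in DMSO, 27.6, 32.9 and 28.6 in AKTi, 38.5, 40.0 and 39.0 in EZH2i, and 40.3, 34.9 and 38.4 in the combination. AKTi libraries were the lowest, and EZH2i overlapped the combination. It fell with AKTi (log2 fold change -0.62 ± 0.0841, edgeR adjusted p = 1.6e-07), while the calls with EZH2i (-0.22) and with the combination (-0.27) were lost with library size only (adjusted p = 0.433 and 0.441), the first also without DMSO replicate A (adjusted p = 0.128). EIF1AX, which encodes eIF1A, fell stepwise, by log2 fold changes of -0.48, -0.91 and -1.19 (edgeR adjusted p at most 2.14e-08). EIF1AD, a nuclear protein with an eIF1A-like domain, was at -0.29, -0.50 and -0.46. Its AKTi call was lost without DMSO replicate A or AKTi replicate A or B (adjusted p up to 0.107). The eIF1A copy EIF1AY was called lower in the combination only (-0.51, edgeR adjusted p = 0.00942), and not without DMSO replicate C (adjusted p = 0.0831).

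**Figure D4:**
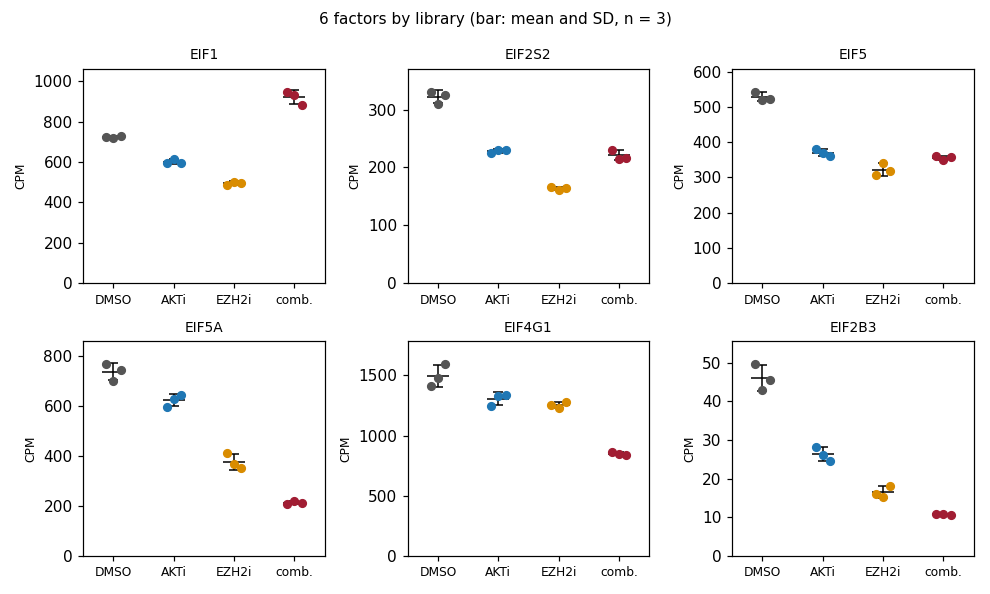
CPM (vertical axis, from 0) of EIF1, EIF2S2, EIF5, EIF5A, EIF4G1 and EIF2B3 in each library of DMSO, AKTi, EZH2i and the combination (comb.). Points are libraries, and bars give the mean and SD of 3. EIF1 is below DMSO with each agent and above it with both, while EIF5A, EIF4G1 and EIF2B3 are lowest in the combination.

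The 13 subunits of eIF3, the largest initiation factor, did not move as a block. With the combination 10 were lower, 1 was higher and 2 were not called, and log2 fold changes ran from -1.40 for EIF3J to 0.27 for EIF3F. Of all genes 35.2% were lower and 38% higher there, and of those at 5 log2 CPM or more 53.2% and 33.6%. EIF3J, the loosely bound subunit near the decoding site, EIF3K, EIF3I and EIF3B formed the low end in the combination, at -1.40, -1.17, -1.13 and -0.99, each with an edgeR adjusted p of 8.67e-19 or less. EIF3B, a core scaffold, was at -0.01 with AKTi (edgeR adjusted p = 0.92) and at -0.76 with EZH2i. EIF3M and EIF3E lay between, at -0.75 and -0.49 in the combination. EIF3E with AKTi (-0.18) lost its call when scaled by the upper quartile or by library size only (adjusted p up to 0.0783). EIF3M had an interaction of 0.40 (edgeR adjusted p = 0.000143), and the combination differed from EZH2i by 0.02 (edgeR adjusted p = 0.799).

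EIF3F, whose protein carries an MPN domain, was the only subunit called higher in the combination. Its libraries held 277, 275 and 281 CPM in DMSO, 320.2, 314 and 339.5 in AKTi, 286, 295 and 292 in EZH2i, and 349.6, 332 and 321 in the combination. AKTi and combination libraries overlapped and stood above all DMSO libraries. It rose with AKTi (log2 fold change 0.23 ± 0.0518, edgeR adjusted p = 0.00048) and with the combination (log2 fold change 0.27 ± 0.0516, edgeR adjusted p = 1.78e-05). For EIF3A, the largest subunit, EIF3D, which can itself bind the cap, and EIF3L, the combination values of -0.15, -0.14 and -0.13 were called lower but turned to 0.05, 0.05 and 0.07 with library size only, so their direction rests on the scaling. EIF3L had 289, 265 and 294 CPM in DMSO, 309, 323 and 319 in AKTi, 249, 261 and 253 in EZH2i, and 262, 269 and 246 in the combination. Combination libraries overlapped DMSO, and AKTi libraries were the highest. The EZH2i value was -0.16 (edgeR adjusted p = 0.0109) and lost its call without DMSO replicate C (adjusted p = 0.0505), and the rise with AKTi was lost without DMSO replicate B or AKTi replicate B or C (adjusted p up to 0.241). Another annotated gene covers 41.1% of the EIF3L exon bases on the same strand. EIF3G followed a like pattern, at 0.16, -0.40 and -0.25, with its AKTi call lost without DMSO A or B or AKTi B or C (adjusted p up to 0.181) and its combination call with library size only (adjusted p = 0.361). EIF3H was called in no arm, at -0.01, -0.12 and -0.10. EIF3C shares 40.5% of its 100-base stretches with its near-identical copy EIF3CL, and its counts ran from 129 to 773 within the combination alone, so no direction was read from it.

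**Figure D5:**
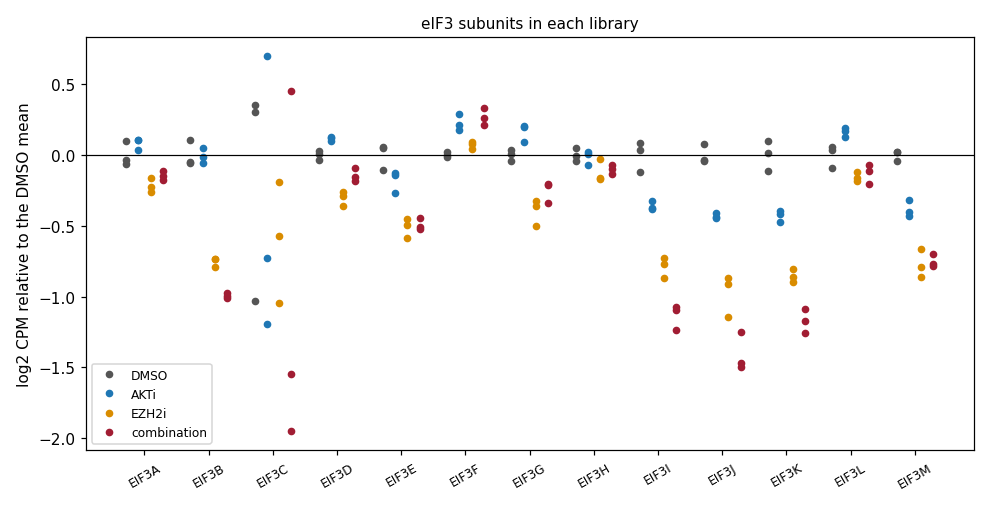
CPM of the 13 eIF3 subunits in each library, as log2 relative to the DMSO mean of the gene (vertical axis), coloured by arm. EIF3B, EIF3I, EIF3J and EIF3K lie near -1 or lower in the combination, EIF3F lies above 0, and EIF3C scatters widely within every arm.

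eIF5 triggers GTP hydrolysis on eIF2 at the start codon, and eIF5B joins the large ribosomal subunit. EIF5 had 544, 521 and 524 CPM in DMSO, 381, 369 and 362 in AKTi, 307, 342 and 317 in EZH2i, and 362, 349 and 357 in the combination. The DMSO libraries were the highest and those of EZH2i the lowest, with no overlap between arms. EIF5 fell with AKTi, EZH2i and the combination by log2 fold changes of -0.52, -0.72 and -0.57, and the interaction was 0.66 ± 0.0734 (edgeR adjusted p = 7.44e-09). In the combination it was above EZH2i by 0.14 (edgeR adjusted p = 0.0227), a call lost without AKTi A, EZH2i A, or combination A or C (adjusted p up to 0.265). EIF5B was at -0.11, -0.29 and -0.66. Its interaction of -0.26 (edgeR adjusted p = 0.0257) was lost without any of 7 libraries, and that of EIF3B at -0.23 without any of 5 (adjusted p up to 0.157 and 0.146).

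eIF5A carries hypusine, a modified lysine, and relieves ribosomes stalled at runs of proline. EIF5A, one of the highest members per length in DMSO, had 767, 702 and 746 CPM in DMSO, 596, 628 and 644 in AKTi, 412, 366 and 352 in EZH2i, and 209, 219.6 and 210.4 in the combination. No arms overlapped, and the combination was lowest. The log2 fold change was -0.25 ± 0.0559 with AKTi, -0.97 ± 0.0566 with EZH2i and -1.79 ± 0.0582 with the combination, which left 0.288 times the DMSO level (edgeR adjusted p = 1.67e-25). The fall was larger than the sum of those with each agent, and the interaction was -0.58 ± 0.0800 (edgeR adjusted p = 5.51e-07). EIF5AL1, an intronless copy with 7.7% of its 100-base stretches found in other genes, had 14.5, 16.6 and 14.2 CPM in DMSO, 11.9, 12.6 and 12.2 in AKTi, 7.90, 9.94 and 9.14 in EZH2i, and 4.51, 4.67 and 4.77 in the combination. Its arms were in the same order without overlap, and the interaction was -0.66 ± 0.193 (edgeR adjusted p = 0.00897). The 2 genes may share reads and are not separate evidence. EIF5A2, the paralog amplified in some tumors, was at -0.45, -0.67 and -0.86. EIF6, which keeps the large subunit from joining too early, was at -0.12 (edgeR adjusted p = 0.158), -0.43 and -0.43.

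Against the single agents, the combination differed from AKTi in 39 of 50 members (4 higher, 35 lower, with 64.2% of all genes called, 32.1% in each direction) and from EZH2i in 30 (12 higher, 18 lower, with 46.7% called, 21.1% higher and 25.7% lower). Below both agents were 17 members, among them EIF4E, EIF2B3, EIF5A, EIF4G1, EIF3B, EIF3I, EIF3J and EIF3K. Of all genes 19.7%, and of those at 5 log2 CPM or more 35.9%, were below both, and these comparisons share the combination libraries. EIF1 and EIF4E3 were above both. EZH2i differed from AKTi in 39 members (4 higher, 35 lower, with 50.4% of all genes called, 25.4% higher and 25.1% lower). The interaction passed the test for 14 members, 8 above 0 and 6 below, or 28% of the members beside 28.2% of all genes, of which 10.7% lay above 0 and 17.5% below. At 5 log2 CPM or more, 80.8% of genes were called in the combination against AKTi (29.6% higher, 51.3% lower), 67% against EZH2i (24.2% higher, 42.8% lower), 67.4% in EZH2i against AKTi (26.4% higher, 41% lower) and 45.2% in the interaction (15.7% above 0, 29.5% below). Of the 39 members at that level, 33 were called in EZH2i against AKTi (3 higher, 30 lower), and the combination gave 3 higher and 30 lower against AKTi and 10 higher and 15 lower against EZH2i. For the interaction, 8 of the 39 lay above 0 and 5 below, together a smaller share than the 45.2% of genes at this level. More of these members lay above 0 than below, while among genes at this level more lay below than above. The counts of members are small, and this difference in direction was not tested.

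To show the sequence next to genes that moved together, the RefSeq windows around gene starts (GRCh38.p14) were searched for CACGTG, the palindromic E-box bound by MYC-MAX and other basic helix-loop-helix factors. A window runs from 250 bases before to 50 bases after a start, and 44 of the 51 members had at least 1. The E-box was in 11 of these 44 members (25%). By window it was in 18.3% of 60 member windows and in 7.26% of all 35116 windows. The forkhead letters GTAAACA or TGTTTAC were in the window of 1 member (EIF3D) and in 3.42% of all windows. TTGCATCA or TGATGCAA, a C/EBP-ATF element, was in no member window and in 0.866% of all. A match is a description of the letters and not evidence of binding.

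Of the 4 lowest and 4 highest members in the combination, EIF2B3, EIF4E, EIF4B and EIF4EBP3 had an E-box, and EIF5A, EIF5AL1, EIF4E3 and EIF4EBP2 had none in their windows. The 250 bases before the start are printed 5′ to 3′ on the strand of the gene with the E-box in capitals. The windows lie at chr1:44986596-44986845 (minus strand, EIF2B3), chr4:98929134-98929383 (minus strand, EIF4E), chr12:53006206-53006455 (plus strand, EIF4B) and chr5:140547412-140547661 (plus strand, EIF4EBP3).
EIF2B3: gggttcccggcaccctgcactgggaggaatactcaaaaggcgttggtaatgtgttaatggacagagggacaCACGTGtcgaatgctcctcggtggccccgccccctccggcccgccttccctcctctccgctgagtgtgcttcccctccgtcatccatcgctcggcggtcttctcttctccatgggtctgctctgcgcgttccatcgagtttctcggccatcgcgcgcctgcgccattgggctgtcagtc
EIF4E: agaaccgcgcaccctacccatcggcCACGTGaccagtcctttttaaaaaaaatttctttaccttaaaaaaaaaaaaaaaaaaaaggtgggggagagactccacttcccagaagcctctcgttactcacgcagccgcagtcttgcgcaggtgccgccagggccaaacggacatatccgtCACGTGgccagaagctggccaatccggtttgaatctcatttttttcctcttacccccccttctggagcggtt
EIF4B: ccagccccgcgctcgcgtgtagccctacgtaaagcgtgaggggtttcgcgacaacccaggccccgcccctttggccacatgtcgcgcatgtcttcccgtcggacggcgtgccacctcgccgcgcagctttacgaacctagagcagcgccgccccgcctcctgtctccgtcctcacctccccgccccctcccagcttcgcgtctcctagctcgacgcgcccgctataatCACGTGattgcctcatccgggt
EIF4EBP3: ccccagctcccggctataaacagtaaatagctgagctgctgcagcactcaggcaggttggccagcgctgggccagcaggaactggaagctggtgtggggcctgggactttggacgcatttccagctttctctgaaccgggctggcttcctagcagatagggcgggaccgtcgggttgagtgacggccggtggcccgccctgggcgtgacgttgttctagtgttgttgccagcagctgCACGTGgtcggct
The E-box began 179 bases before the start in EIF2B3, 225 and 72 bases before it in EIF4E, 22 bases in EIF4B and 13 bases in EIF4EBP3. EIF2B3 and EIF4E fell in the combination (-2.09 and -1.60), and EIF4B and EIF4EBP3 rose (0.53 and 1.15), the last on few counts. Any part of the E-box in these changes was not tested.

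The other genes of the pathway were taken from a list by role, of which 53 of 54 were tested. With AKTi 21 were higher and 17 lower (median log2 fold change 0.02), with EZH2i 16 and 24 (-0.08), and in the combination 15 and 29 (-0.28). Their share of calls was 71.7% with AKTi, 75.5% with EZH2i and 83% in the combination, over listed genes of every level. For all tested genes these shares were 42.5%, 64.1% and 73.2%, and for those at 5 log2 CPM or more 62.9%, 79.6% and 86.8%. In the combination 38% of all genes were higher and 35.2% lower, and at 5 log2 CPM or more 33.6% and 53.2%. The lists below are small, and their counts in the combination were not read as particular to them. Of 13 genes of the mTORC1 arm, 2 were higher and 9 lower. RPS6KB2, an S6 kinase, was at -1.34, and TSC1, a brake on mTORC1, at 0.75. TSC2, of the same list, had means of 83.1 CPM in DMSO and 81.5 CPM in the combination. PDCD4, an inhibitor of eIF4A that S6 kinase marks for degradation, rose with AKTi, EZH2i and the combination (0.60, 1.43 and 0.76), and its interaction was -1.27 ± 0.0903 (edgeR adjusted p = 9.89e-14). Among 14 partners of eIF4F, 7 were higher and 4 lower in the combination. CYFIP2, whose relative CYFIP1 binds eIF4E, and GIGYF1, a partner of 4EHP, rose (1.70 and 0.65), while the helicases DHX36 and DDX3X fell (-1.39 and -0.82).

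Of 11 genes that set eIF2 phosphorylation, 4 were higher and 5 lower in the combination. PPP1R15A, the stress-induced partner of the eIF2 phosphatase also called GADD34, was at 0.72, 1.45 and 1.85 (3.61 times DMSO in the combination, edgeR adjusted p = 9.44e-13), while the constitutive partner PPP1R15B fell in each arm (-0.55, -0.77 and -0.41). The kinase gene EIF2AK3, which encodes PERK, rose with EZH2i (log2 fold change 1.18 ± 0.0786, edgeR adjusted p = 9.06e-16) and the combination (0.99) and was at 0.02 with AKTi. EIF2AK2, which encodes PKR, was at 0.25, 0.41 and 0.82, all called. All 3 genes of recycling and reinitiation, ABCE1, DENR and MCTS1, fell in every arm, to -1.70, -1.37 and -1.23 in the combination. Of all genes 17%, and of those at 5 log2 CPM or more 30%, were lower in all 3 arms. DOHH, which completes hypusine on eIF5A, was at -1.00 in the combination with an interaction of -0.67 (edgeR adjusted p = 0.00116). Of the 10 tested elongation and termination genes, 2 were higher and 7 lower, with EEF1E1, a scaffold of the tRNA synthetase complex, at -2.29 and the elongation factor EEF2 at 0.17.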

How the data were processed

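RNA-seq of C4.2B cells was analysed in 4 arms of 3 libraries, grouped by the treatment in the labels. The authors aligned reads to hg38 with STAR and counted them on genes with HTSeq, and the deposited values are whole-number counts, per the labels' processing notes. Software versions, gene annotation and strand setting are not given in the sources used here. All 12 libraries were built by 1 provider, per the labels. The study's methods name more than one sequencing site without assigning libraries to them, and no batch term was fitted for them. A second deposited table holds signal values, which the authors made by normalizing the counts with DESeq2. For the members, 612 of 612 equalled the counts divided by 1 factor per library (tolerance 0.01 counts), and only the counts were tested.

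Counts were analysed in R 4.3.3. In edgeR 4.0.16, 16646 genes passed filterByExpr at a minimum count of 10 and a minimum total of 15. Libraries were scaled by TMM (factors 0.929 to 1.09). All 12 libraries entered 1 quasi-likelihood fit with a mean for each arm, with Benjamini-Hochberg adjustment over all tested genes at 0.05. The interaction is the log2 effect of AKTi with tazemetostat minus that without it. CPM are counts per 1000000 counts in tested genes after TMM. CPM per kb use the gene length column, which belongs to no sample. Ratios of members were compared by exact two-sided permutation of 3 libraries against 3, adjusted over 55 comparisons. Libraries of an arm differed by more than sampling noise (chi-square of 2.57 to 7.77 per gene), so each counted as a replicate. On simulated counts the test recovered 178 of 200 changed genes for the combination against DMSO, with 4 false calls among 16121 genes. The changed genes were raised or lowered by the same fold in equal numbers, with the same spread set for every gene. With so few and balanced changes, the simulation cannot show how calls depend on the scaling or hold for small fold changes.

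Per-library values are given for EIF4E, the 4E-binding protein genes, the 4 lowest and 4 highest called members in each arm against DMSO and the 3 lowest and 3 highest in the interaction, among called members with a mean of at least 1 log2 CPM. EIF5 was added after its values were seen. The members, roles and pathway lists were chosen with earlier results of these data known. Exons and 100-base stretches shared with other genes were taken from GENCODE 44, whose gene spans equalled those of the files for 14 of the 51 members. Alternatives were DESeq2 1.42.0, other scalings and filters, only the 6 libraries compared, a replicate block, each library left out in turn and, chosen after seeing the data, leaving out members that share over 25% of their exon bases or stretches and taking gene lengths from GENCODE. Figures were drawn with matplotlib 3.10.9 in Python 3.11.15.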

Additional observations from a re-analysis of the deposited data

Results flagged for a closer look

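For 14 members the effect of AKTi differed between cells with and without tazemetostat, by edgeR's test of the interaction term at an adjusted p under 0.05, where 28.2% of all tested genes passed. Those above 0 on the log2 scale were EIF1 (1.16), EIF4EBP1 (1.09), EIF2S2 (0.93), EIF5 (0.66), EIF1B (0.57), EIF3M (0.40), EIF2S3 (0.29) and EIF2A (0.27). Those below 0 were EIF5AL1 (-0.66), EIF5A (-0.58), EIF4G1 (-0.36), EIF2B5 (-0.30), EIF5B (-0.26) and EIF3B (-0.23). For EIF1 the AKTi effect changed direction, from -0.27 on the log2 scale without tazemetostat to 0.90 with it. EIF2S2, at -0.50 with AKTi alone and 0.43 in tazemetostat-treated cells, did the same. EIF5 went from -0.52 to 0.14, but the call of 0.14 was lost when any of 4 libraries was left out (edgeR adjusted p up to 0.265). EIF4EBP1 went from -0.13, which was not called, to 0.96. EIF2A went from -0.01 to 0.26. EIF5A fell by AKTi in both settings, from -0.25 to -0.82. EIF5A and EIF5AL1 are near copies and may share reads, so they count as 1 pattern. The calls of EIF5B and EIF3B were each lost when single libraries were left out. Why these members differ was not tested.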

How the results depend on the processing

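The number of members called stayed within 1.5 times its value under the alternatives tried. Leaving out each library in turn gave 27 to 34 called members for AKTi against DMSO, 40 to 44 for EZH2i, 43 to 46 for the combination and 12 to 16 for the interaction, and the other settings gave 30 to 35, 40 to 43, 39 to 46 and 14 to 17. Against the single agents the combination gave 37 to 42 (AKTi) and 27 to 31 (EZH2i) with a library left out. In the combination against DMSO, scaling by library size only turned EIF2A (0.00), EIF3A (0.05), EIF3D (0.05) and EIF3L (0.07), and upper-quartile scaling turned EIF3A (0.04), EIF3D (0.04) and EIF3L (0.06), while these scalings moved the median of all genes to 0.26 and 0.25. EIF4G2 in the combination against AKTi turned to 0.01 with library size only. Both scalings raised the number called higher from 7 to 11 with AKTi (lower from 25 to 20), from 3 to 5 with EZH2i and from 4 to 7 in the combination against AKTi. All called members of the 7 contrasts and the uncalled 4E-binding protein values against DMSO were recomputed. Of the 4622 values this gave under an alternative, 4482 kept direction and call, 131 lost the call, 1 gained it and 8 turned. Without the 4 members that share over 25% of their exon bases or stretches (EIF3C, EIF3L, EIF4A1 and EIF4EBP3), 5 were higher and 25 lower of 46 with AKTi, 3 and 37 with EZH2i and 6 and 36 with the combination. Leaving out these members, and using GENCODE lengths, were chosen after seeing the data. GENCODE lengths moved EIF3I in DMSO from 321 to 58.05 CPM per kb, and in the combination EIF4E3 to EIF4E from 1.32 to 0.466. They also moved the sum of the 3 4E-binding proteins to EIF4E in the combination from 45.7 to 18.5.

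No pairing of libraries by the letters A, B and C was seen: deviations of libraries with the same letter correlated by -0.0583 to 0.0688 in 18 pairs. Whether plates of the same letter were handled together cannot be told from this. With the replicate block, 7 members were higher and 25 lower with AKTi, 3 and 40 with EZH2i, 7 and 39 with the combination, and 9 and 6 in the interaction. The cause of the scaling differences was not tested. Few or no counts stand behind EIF4EBP3 and EIF4E1B. Annotated overlaps and near copies leave EIF3C, EIF3L, EIF4A1 and EIF4EBP3 uncertain, and the strand setting is not given in the sources used here.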

Other observations

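Genes around initiation outside the members gave the following values, for which no alternatives were run. RHEB, the GTPase that activates mTORC1, fell in each arm (log2 fold changes -0.45, -0.41 and -0.73 for AKTi, EZH2i and the combination, edgeR adjusted p at most 2.24e-07). ETF1, the release factor that reads stop codons, also fell in each arm (-0.44, -0.68 and -0.94, edgeR adjusted p at most 1.29e-08). PPP1R15B, the constitutive partner of the eIF2 phosphatase, had an interaction of 0.91 (edgeR adjusted p = 3.41e-09). It was higher in the combination than with EZH2i (0.36, edgeR adjusted p = 4.88e-05), while the difference from AKTi of 0.14 missed the threshold (edgeR adjusted p = 0.0833). DHPS, which starts hypusine synthesis, had 14 to 44 counts per library, and was called lower with EZH2i (-0.92 ± 0.331, edgeR adjusted p = 0.0156) but not with AKTi or the combination (-0.56 and -0.53).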
